A study of Homo sapiens with 6 samples.

Results

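The mRNAs of 10 genes that sense and relay translation stress were counted by RNA sequencing in cells labelled HCCLM3, a line from a human hepatocellular carcinoma. Cells had been kept for 24 h with CC-885 (3 libraries) or with its solvent DMSO (3 libraries), all in medium with serum. CC-885 is a small molecule that binds cereblon (CRBN), the substrate receptor of a ubiquitin ligase, and sends the translation termination factor GSPT1, among other proteins, to degradation. The labels used here state no dose. The genes were taken by name as the core of the eIF2 pathway. These are the kinases EIF2AK1, EIF2AK2, EIF2AK3 and EIF2AK4, the transcription factors ATF4, ATF3 and DDIT3 (CHOP), and the feedback genes PPP1R15A, PPP1R15B and TRIB3. Like the lists used below, they were chosen with earlier results of these data known, so counts of called members are descriptive only. All 10 had a row among the 20263 of the count table, and all 10 passed the filter on low counts that left 13444 genes for testing.

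Cells slow protein synthesis under stress by phosphorylating the initiation factor eIF2. Each of the 4 kinases answers to another signal: EIF2AK1 (HRI) to lack of haem and to mitochondrial stress, EIF2AK2 (PKR) to double-stranded RNA, EIF2AK3 (PERK) to unfolded protein in the endoplasmic reticulum, and EIF2AK4 (GCN2) to uncharged tRNA and stalled ribosomes. Phosphorylated eIF2 lets the mRNA of ATF4 be translated through its upstream reading frames, and ATF4 then switches on genes for amino acid supply along with ATF3, DDIT3, TRIB3 and PPP1R15A. The last of these directs protein phosphatase 1 back to eIF2 and so closes the loop. Much of this regulation acts on translation and phosphorylation, which mRNA counts do not show.

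Library totals lay between 30432509 and 39809131 counts. Whether replicate libraries stem from separate cultures is not stated, so each p-value measures a spread that may be technical. The labelled cell type was checked against 10 hepatocyte and hepatoma markers, and only KRT8, KRT18 and HNF4A reached 1 CPM (library counts scaled to the same total, with TMM factors) in any library, HNF4A at no more than 1.38 CPM. ALB, AFP, TTR and GPC3 had 0 counts in all 6 libraries. Apart from the keratins, these markers thus did not bear out the labelled cell type, and the identity of the line was not tested further. The summed level of these 10 markers was 1361 to 1655 CPM with CC-885, against 1806 to 2211 CPM with DMSO, nearly all of it keratin. Of 8 markers of blood, endothelial and stromal cells, PTPRC and CD3E had 0 counts, 4 reached 1 CPM, and the summed level was 156 to 188 CPM with CC-885, against 159 to 189 CPM with DMSO. COL1A1 was higher with CC-885 (155 ± 16.3 CPM, against 104 ± 6.22 CPM with DMSO) and PDGFRB lower (14.1 ± 0.37 CPM, against 70.9 ± 10.7 CPM with DMSO, SD, n = 3 each, edgeR adjusted p = 8.63e-07). VWF was higher (1.88 ± 0.655 CPM with CC-885, against 0.929 ± 0.258 CPM with DMSO, edgeR adjusted p = 0.0232). It no longer passed when CC-885 replicate 1, DMSO replicate 1 or DMSO replicate 2 was left out (edgeR adjusted p = 0.116, 0.0508 and 0.0762). HNF4A was lower (0.214 ± 0.183 CPM with CC-885, against 1.25 ± 0.184 CPM with DMSO, edgeR adjusted p = 0.00156). KRT8 was lower too (890 ± 106 CPM with CC-885, against 1252 ± 136 CPM with DMSO, edgeR adjusted p = 0.0236), but not without DMSO replicate 1 or any one CC-885 library (edgeR adjusted p between 0.0595 and 0.117). The part of these differences in the results below was not tested. In a bulk sample, more cells of a kind and more RNA per cell cannot be told apart. Values are relative to the library, so a change in the RNA content of all genes together would not show.

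The transcription factors and the feedback genes were all higher with CC-885, and of the 4 kinases EIF2AK3 alone was. Of the 10 genes 7 were called higher and 0 lower (edgeR quasi-likelihood test, Benjamini-Hochberg adjusted p over all 13444 genes, threshold 0.05). At an unadjusted p under that threshold 1 of the 10, EIF2AK1, was lower, and DESeq2 and limma-voom called 0 lower after adjustment. Across all tested genes 52.6% were called, 25.8% higher and 26.8% lower. By at least 2-fold 6 of the 10 were higher, against 8.23% of all tested genes. The median log2 fold change of the 10 was 1.25, and that of all tested genes -0.04. In 7 genes all CC-885 values exceeded all DMSO values, which held for 29.9% of all tested genes. In 2 genes, EIF2AK1 and EIF2AK4, they were all below, as in 31.2% of all tested genes, and in EIF2AK2 the groups overlapped.

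**Figure D1:**
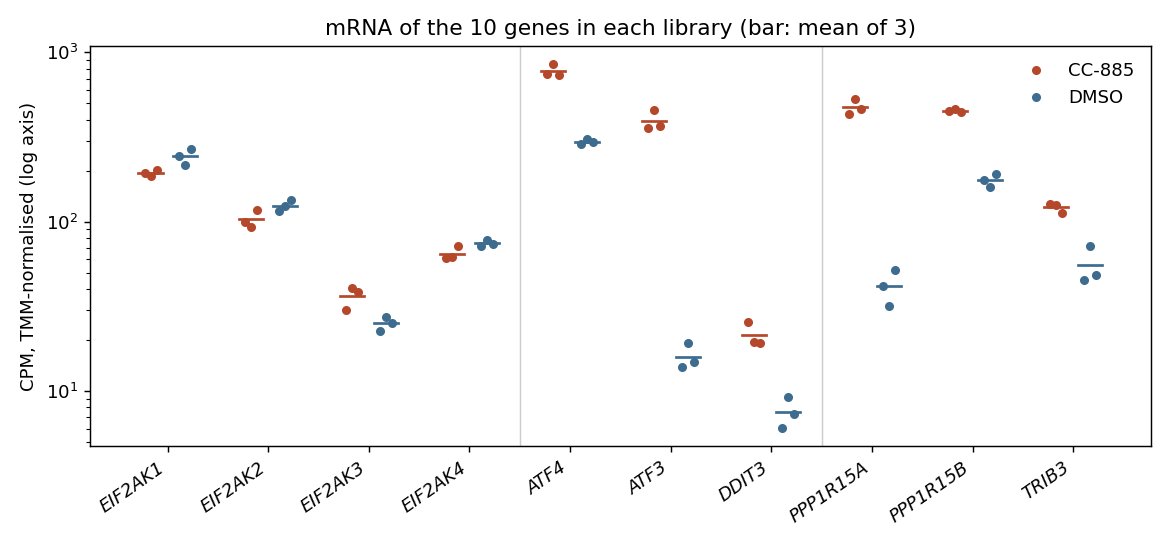
TMM-normalised CPM (log axis) of the 10 genes in each library, CC-885 in red and DMSO in blue, with a bar at the mean of 3 libraries; vertical lines part kinases, transcription factors and feedback genes. ATF3 and PPP1R15A show the widest gaps, with means of 393 and 475 CPM with CC-885, against 15.9 and 41.6 CPM with DMSO.

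ATF4 (ENSG00000128272), the basic leucine zipper factor at the centre of the response, had 744, 852 and 735 CPM in the CC-885 libraries, against 286, 306 and 295 CPM in the DMSO libraries. Every CC-885 library stood well above every DMSO library, and the DMSO values lay close together. The mean was 777 ± 65.1 CPM with CC-885, against 296 ± 9.97 CPM with DMSO (SD, n = 3 each), a 2.63-fold difference (log2 fold change 1.39, SE 0.14, edgeR adjusted p = 1.62e-05). Per kilobase of exon it was the most abundant of the 10 mRNAs in both groups, at 309 CPM per kb with CC-885, against 118 CPM per kb with DMSO. ATF4 is known to be controlled largely at translation, and its protein was not measured here.

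ATF3 (ENSG00000162772), a stress-induced factor of the same family that can repress or activate its targets, had the largest change of the 10. It gave 359, 455 and 366 CPM with CC-885, against 13.8, 19.1 and 14.9 CPM with DMSO. No DMSO library came near a CC-885 library. The fold was 24.7 (log2 fold change 4.62, SE 0.19, edgeR adjusted p = 4.44e-08), and ATF3 ranked 20 of 13444 genes from the highest log2 fold change down. With DMSO it was the least abundant of the 10 per kilobase (3.95 CPM per kb), where its range overlapped that of EIF2AK3. With CC-885 it stood at 97.3 CPM per kb, behind ATF4 and PPP1R15A and above PPP1R15B.

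DDIT3 (ENSG00000175197) encodes CHOP, a partner of C/EBP factors known for its link to cell death under lasting stress. The CC-885 libraries gave 25.5, 19.4 and 19.1 CPM and the DMSO libraries 6.06, 9.23 and 7.3 CPM. The groups did not overlap, though the highest DMSO library and the lowest CC-885 libraries stood closer than in ATF3. DDIT3 was 2.83-fold higher (log2 fold change 1.5, SE 0.19, edgeR adjusted p = 8.17e-05). Its counts, between 658 and 766 with CC-885 and between 232 and 339 with DMSO, were the lowest of the 10 genes in each library. They are also less certain than the others: in GENCODE 29, 27.2% of the exon bases of DDIT3 lie opposite exons of MARS1, the gene of methionyl-tRNA synthetase, 4.44% opposite MBD6, and 8.03% within another gene on the same strand. MARS1 itself was higher (235 CPM with CC-885, against 93.1 CPM with DMSO, log2 fold change 1.34, SE 0.19, edgeR adjusted p = 0.000192). Without knowledge of strand, reads from the exon stretch that this pair shares cannot be told apart.

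**Figure D2:**
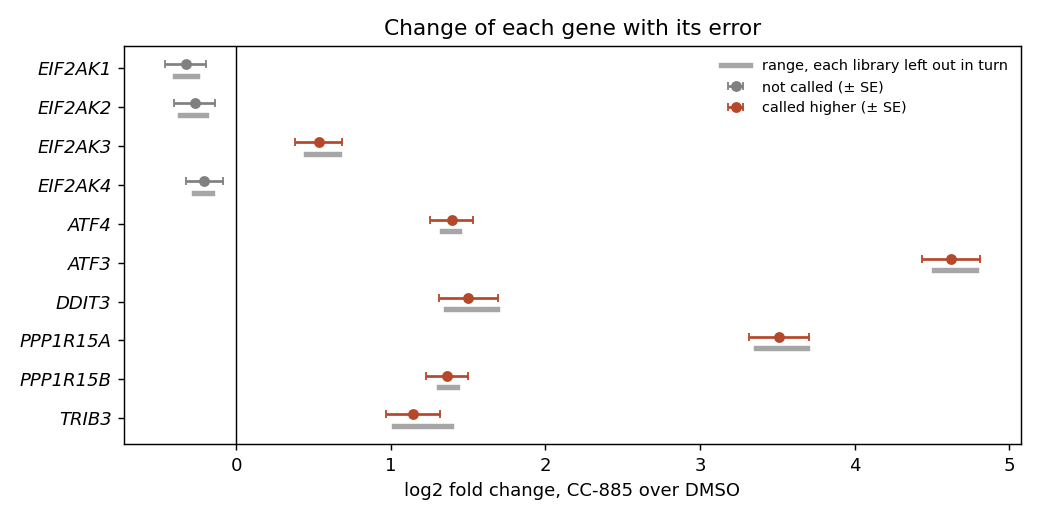
Log2 fold change of CC-885 over DMSO for each of the 10 genes with its standard error (points, red where called higher, grey where not called), and below each point the range when each library was left out in turn (grey bars). The kinases lie near 0, from -0.33 to 0.53, and the other 6 genes between 1.14 and 4.62.

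The feedback arm holds a pair of phosphatase adaptors. PPP1R15A (GADD34) is the stress-induced one and PPP1R15B (CReP) the one that cells are known to make at rest. PPP1R15A (ENSG00000087074) gave 432, 531 and 463 CPM with CC-885, against 41.5, 31.8 and 51.7 CPM with DMSO. The gap between the groups was many times the spread within each. It was 11.4-fold higher (log2 fold change 3.51, SE 0.20, edgeR adjusted p = 3.55e-07). PPP1R15B (ENSG00000158615) gave 453, 464 and 442 CPM with CC-885, against 176, 161 and 191 CPM with DMSO, again without overlap. Its fold was 2.57 (log2 fold change 1.36, SE 0.13, edgeR adjusted p = 1.40e-05).

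The balance between the adaptors differed between the groups. The log2 ratio of PPP1R15A to PPP1R15B counts was -0.07, 0.19 and 0.07 in the CC-885 libraries, against -2.08, -2.34 and -1.89 in the DMSO libraries. In counts per exon length, PPP1R15A stood at 1.61, 1.93 and 1.77 times PPP1R15B with CC-885, against 0.400, 0.333 and 0.456 times with DMSO. By this measure, which counts all annotated exons, the order of the pair was opposite in the 2 groups in all 6 libraries. In raw counts the pair stood near equal with CC-885, and PPP1R15A was slightly below PPP1R15B in CC-885 replicate 1. The log2 ratio was higher by 2.17 with CC-885 (two-sided exact permutation test, p = 0.1, the smallest that 3 against 3 allow). ATF3 over ATF4 also separated, with a mean log2 ratio of -0.99 ± 0.07 with CC-885, against -4.23 ± 0.20 with DMSO (exact permutation p = 0.1, n = 3 each). The log2 ratio of DDIT3 to ATF4 was -4.87, -5.46 and -5.26 with CC-885, against -5.56, -5.05 and -5.33 with DMSO. These ranges overlapped (difference 0.12, exact permutation p = 0.6), and the sign of the difference turned without CC-885 replicate 1 (-0.048) or DMSO replicate 1 (-0.0047).

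**Figure D3:**
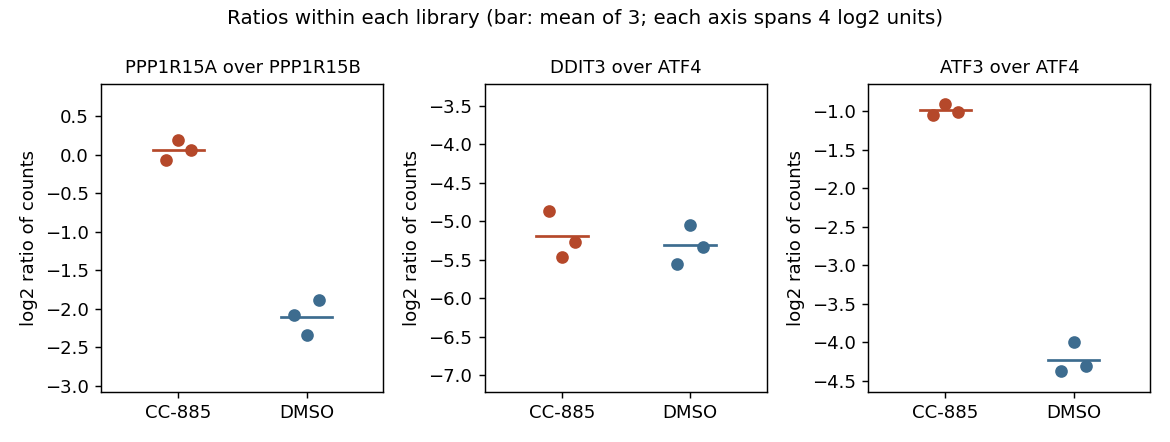
Log2 ratio of counts of a pair of genes within each library (points) with the mean of 3 (bar), CC-885 in red and DMSO in blue, on axes of equal span. The ratio PPP1R15A over PPP1R15B was 2.17 higher with CC-885 and ATF3 over ATF4 3.24 higher, while DDIT3 over ATF4 overlapped.

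TRIB3 (ENSG00000101255), a pseudokinase that binds ATF4 and CHOP and dampens them, was the least changed of the feedback genes. It gave 127, 126 and 113 CPM with CC-885, against 45.5, 71.9 and 48.1 CPM with DMSO. DMSO replicate 2 was the highest of its group but stayed below all CC-885 libraries. The fold was 2.21 (log2 fold change 1.14, SE 0.17, edgeR adjusted p = 0.000267), with log2 fold changes between 1.02 and 1.39 when a library was left out. Its paralog TRIB1 was also higher (27.6 ± 1.61 with CC-885, against 17.2 ± 4.17 CPM with DMSO, SD, n = 3 each, log2 fold change 0.68, edgeR adjusted p = 0.00677). The other paralog, TRIB2, did not exceed 0.8 CPM in any library and was not called (edgeR adjusted p = 0.0509).

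The stretches before the transcription start are shown for 4 genes called higher in which a search for 3 motifs known from this response matched. EIF2AK4 also held a match, but was not called and is not shown. ATF4, TRIB3 and EIF2AK3 were called higher without a match. The sequences are the 250 bases before a start in RefSeq (GRCh38.p14), written on the strand of the gene, with matches in capitals. The search took the composite element of C/EBP and ATF factors (TGATGNAAN), the CRE-like element of ATF and CREB factors (TGACGTNA) and the AP-1 element (TGANTCA), on both strands.
PPP1R15A (chr19:48872171-48872420, plus strand): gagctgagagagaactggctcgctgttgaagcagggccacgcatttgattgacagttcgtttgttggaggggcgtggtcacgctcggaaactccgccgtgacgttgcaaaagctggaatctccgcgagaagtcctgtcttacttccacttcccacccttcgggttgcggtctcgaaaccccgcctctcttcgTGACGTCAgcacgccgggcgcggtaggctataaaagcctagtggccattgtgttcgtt
PPP1R15B (chr1:204411818-204412067, minus strand): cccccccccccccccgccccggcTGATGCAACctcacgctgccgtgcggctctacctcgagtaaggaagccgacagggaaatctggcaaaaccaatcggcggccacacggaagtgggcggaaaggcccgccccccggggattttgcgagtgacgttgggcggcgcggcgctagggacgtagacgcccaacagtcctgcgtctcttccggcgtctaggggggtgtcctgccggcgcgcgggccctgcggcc
ATF3 (chr1:212565157-212565406, plus strand): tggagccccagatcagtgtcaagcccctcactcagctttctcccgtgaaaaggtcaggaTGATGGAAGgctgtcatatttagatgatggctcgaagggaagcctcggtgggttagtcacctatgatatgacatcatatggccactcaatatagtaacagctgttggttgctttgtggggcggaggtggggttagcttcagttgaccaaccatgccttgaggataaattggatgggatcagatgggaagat
DDIT3 (chr12:57520515-57520764, minus strand): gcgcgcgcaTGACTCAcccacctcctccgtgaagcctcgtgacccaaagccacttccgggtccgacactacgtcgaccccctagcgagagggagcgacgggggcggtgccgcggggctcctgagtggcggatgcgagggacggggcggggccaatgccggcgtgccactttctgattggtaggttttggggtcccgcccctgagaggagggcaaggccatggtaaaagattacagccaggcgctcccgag
PPP1R15A holds a CRE-like match 58 bases before its start. PPP1R15B and this ATF3 window hold a composite match, 227 and 191 bases before the start, and DDIT3 an AP-1 match 241 bases before. No match overlapped another.

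Of the 10 genes 9 had windows in the table, 14 in all, and EIF2AK1 had none. Composite matches lay in 2 of the 14 windows, against 3.13% of all 35116 windows of this length. A CRE-like match lay in 1 (2.67% of all windows) and AP-1 matches in 3, of which 2 are overlapping windows of DDIT3 and 1 belongs to EIF2AK4 (6.57% of all windows). The windows of ATF4, TRIB3, EIF2AK2 and EIF2AK3 and the second window of ATF3 held no match to these letters. Such a match is a string of letters and not a measured binding site, and the counts do not say which start was used.

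Of the 4 kinases 1 was called higher, a share near the 25.8% of all tested genes. This was EIF2AK3 (ENSG00000172071). It gave 29.9, 40.7 and 38.4 CPM with CC-885, against 22.7, 27.5 and 25.2 CPM with DMSO. The groups did not overlap, but CC-885 replicate 1 lay near the highest DMSO library. The fold was 1.45 (log2 fold change 0.53, SE 0.15, edgeR adjusted p = 0.0114). This call was lost without CC-885 replicate 2 (0.45, edgeR adjusted p = 0.061) or without DMSO replicate 1 (0.47, edgeR adjusted p = 0.055).

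EIF2AK1 (ENSG00000086232) had 193, 186 and 202 CPM with CC-885, against 244, 217 and 269 CPM with DMSO. Each CC-885 library lay below each DMSO library, yet the gene was not called (log2 fold change -0.33, SE 0.13, edgeR adjusted p = 0.0558). It passed as lower without DMSO replicate 2 (-0.39, edgeR adjusted p = 0.00805) and with 3 other settings given in the closing section. EIF2AK4 (ENSG00000128829) had 61.2, 61.8 and 71.4 CPM with CC-885, against 71.9, 78.2 and 74.0 CPM with DMSO, groups that came within 1 CPM of each other (log2 fold change -0.21, SE 0.12, edgeR adjusted p = 0.176). EIF2AK2 (ENSG00000055332) gave 99.2, 93.5 and 117 CPM with CC-885, against 116, 123 and 134 CPM with DMSO (log2 fold change -0.27, SE 0.13, edgeR adjusted p = 0.108). Parts of EIF2AK1 and EIF2AK2 lie opposite exons of AIMP2 (9.59% of exon bases) and GPATCH11 (0.325%), and 14.4% of the exon bases of EIF2AK3 lie opposite an annotated antisense RNA.

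Per kilobase of exon, EIF2AK1 made up most of the kinase mRNA. Its share of the summed level of the 4 was 61.7 ± 1.7% with CC-885, against 66.1 ± 2.73% with DMSO (SD, n = 3 each). EIF2AK2 followed with 16.9 ± 1.08% with CC-885, against 17.5 ± 0.909% with DMSO. EIF2AK3 had 10.1, 13.6 and 11.7% in the CC-885 libraries, against 6.42, 8.13 and 6.46% in the DMSO libraries, which did not overlap. EIF2AK4 had 9.56 ± 0.291% with CC-885, against 9.47 ± 0.968% with DMSO. The summed level was 56.6 ± 3.26 CPM per kb with CC-885, against 66.3 ± 4.92 CPM per kb with DMSO. These lengths count all annotated exons of a gene, so a level per kilobase is low for a gene with many unused exons.

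**Figure D4:**
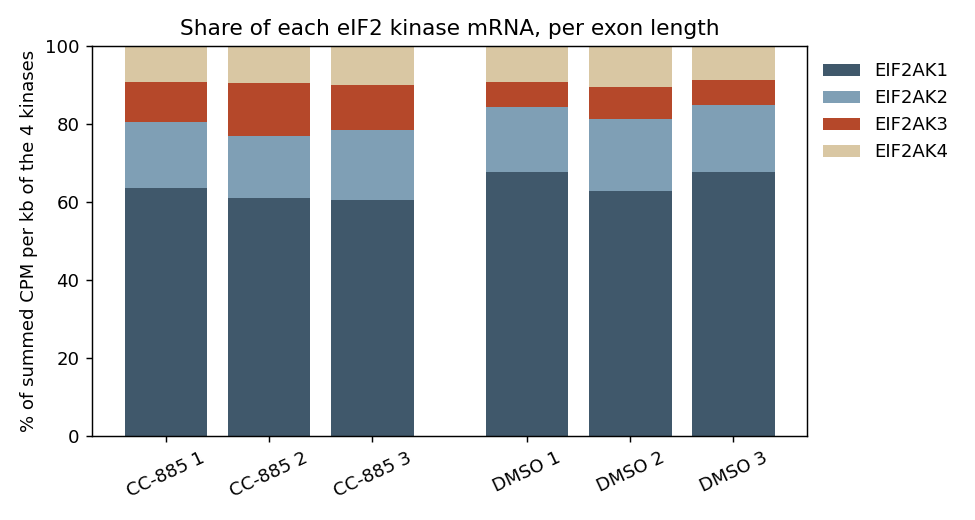
Share of each eIF2 kinase in the summed CPM per kb of the 4 kinases, in %, 1 stacked bar a library, CC-885 libraries to the left of DMSO libraries. EIF2AK1 holds 60.4 to 67.7% in every library, and the red band of EIF2AK3 is wider in the CC-885 libraries (10.1 to 13.6%) than in the DMSO libraries (6.42 to 8.13%).

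The order of the 10 levels per kilobase differed between the groups. With CC-885 it ran ATF4, PPP1R15A, ATF3, PPP1R15B, TRIB3, EIF2AK1, DDIT3, EIF2AK2, EIF2AK3 and EIF2AK4, and only TRIB3 with EIF2AK1 and EIF2AK3 with EIF2AK4 had ranges that overlapped as neighbours. With DMSO it ran ATF4, EIF2AK1, PPP1R15B, TRIB3, PPP1R15A, EIF2AK2, EIF2AK4, DDIT3, EIF2AK3 and ATF3. There the neighbours TRIB3 and PPP1R15A, PPP1R15A and EIF2AK2, and each pair from EIF2AK4 to ATF3 overlapped.

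The kinases act on eIF2, whose exchange factor is eIF2B. Of 8 subunits of eIF2 and eIF2B, 2 were higher and 0 lower, where 25.8% of all tested genes were higher and 26.8% lower, so the share called higher was near that of all genes (median log2 fold change 0.08; 0 lower also at an unadjusted p under the threshold, in edgeR, DESeq2 and limma-voom). EIF2S1, the alpha subunit that carries the phosphorylated serine, gave 219 ± 15.2 CPM with CC-885, against 151 ± 23.9 CPM with DMSO (log2 fold change 0.54, edgeR adjusted p = 0.00909). EIF2S2, the beta subunit, gave 317 ± 25.2 CPM with CC-885, against 172 ± 15.3 CPM with DMSO (0.88, edgeR adjusted p = 0.000285). None of the 5 subunits of eIF2B, the exchange factor that phosphorylated eIF2 blocks, was called, with log2 fold changes between -0.18 and 0.24.

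Of 10 genes that act on the kinases 1 was higher and 4 were lower, beside 25.8% higher and 26.8% lower of all tested genes (median log2 fold change -0.17). OMA1, the mitochondrial protease known to start signalling to EIF2AK1, was lower (8.04 ± 1.42 with CC-885, against 16.3 ± 1.59 CPM with DMSO, log2 fold change -1.02, edgeR adjusted p = 0.000467). IMPACT, which restrains EIF2AK4, was lower (-0.85, edgeR adjusted p = 0.00107), as was HSPA5, the chaperone that holds EIF2AK3 inactive (691 ± 7.4 CPM with CC-885, against 1029 ± 85.9 CPM with DMSO, -0.58, edgeR adjusted p = 0.00577). MAP3K20 (ZAK), a kinase that senses collided ribosomes, was higher (0.47, edgeR adjusted p = 0.00646). GCN1 and DELE1, which relay signals to EIF2AK4 and EIF2AK1 and were also picked with their values in view, were not called (log2 fold changes 0.01 and -0.0039). Of the 3 catalytic subunits that the PPP1R15 adaptors bind, 1 was lower and 0 higher. The share called lower was near the 26.8% of all tested genes, of which 25.8% were higher. The lower one was PPP1CB (-0.54, edgeR adjusted p = 0.00734). PPP1CA (-0.35, edgeR adjusted p = 0.0517) and PPP1CC (-0.19) were not called.

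Among 12 dimer partners and ubiquitin ligases of ATF4, CHOP and ATF3, 8 were higher and 1 lower, where all tested genes gave 25.8% and 26.8% (median log2 fold change 0.54). JUN, a partner of ATF3 in AP-1 dimers, gave 639, 743 and 669 CPM with CC-885, against 33.6, 27.3 and 39.4 CPM with DMSO (log2 fold change 4.35, edgeR adjusted p = 5.36e-08). JUNB was higher by 2.25 on the log2 scale, and CEBPG, a partner of ATF4, by 1.44 (121 ± 3.79 CPM with CC-885, against 44.5 ± 6.64 CPM with DMSO). CEBPA, the C/EBP factor of mature hepatocytes, was lower (7.62 ± 1.89 CPM with CC-885, against 19.8 ± 1.63 CPM with DMSO, -1.38, edgeR adjusted p = 0.000127).

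Of 20 known targets of ATF4 and CHOP, 13 were higher and 1 lower, against 25.8% and 26.8% of all tested genes, with a median of 0.67. CTH, the cystathionine cleaving enzyme, gave 222 ± 19.2 CPM with CC-885, against 79.2 ± 19.4 CPM with DMSO (1.49). STC2, a secreted glycoprotein, gave 83.6 ± 7.13 CPM with CC-885, against 31.3 ± 3.58 CPM with DMSO (1.42), and NUPR1, a stress-induced chromatin protein, 241 ± 20.7 CPM with CC-885, against 102 ± 5.33 CPM with DMSO (1.24). In the edgeR test the highest adjusted p among CTH, STC2 and NUPR1 was 5.34e-05. The hormone gene FGF21, counted among the higher ones, rests on few counts (0.433, 0.572 and 0.349 CPM with CC-885, against 0, 0 and 0.123 CPM with DMSO). DDIT4, an inhibitor of mTORC1, was the lower one (-0.71, edgeR adjusted p = 0.0032). Other targets tied to CHOP and cell death were divided and were chosen after seeing their values: TNFRSF10B, the death receptor DR5, was higher (0.53, edgeR adjusted p = 0.0071), and ERO1A (-0.08), BBC3 (0.11) and BCL2L11 (-0.28) were not called. CHAC1, a glutathione-degrading enzyme, gave 2.8, 8.6 and 2.8 CPM with CC-885, against 2.5, 2.2 and 3.2 CPM with DMSO, and only CC-885 replicate 2 stood clear of the DMSO libraries.

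In the other arms of the endoplasmic reticulum response 4 of 8 genes were higher and 2 lower (median log2 fold change 0.29). The share called lower was near the 26.8% of all tested genes, of which 25.8% were higher. XBP1, the factor spliced by IRE1, was higher (201 ± 42.3 CPM with CC-885, against 71.8 ± 7.35 CPM with DMSO, 1.49), as were the sensor genes ERN1 (IRE1, 0.61, edgeR adjusted p = 0.00542) and ATF6 (0.60, edgeR adjusted p = 0.00469). The chaperone genes SDF2L1 (-1.22, edgeR adjusted p = 0.000945) and HSP90B1 (-0.42, edgeR adjusted p = 0.0303) were lower, and the HSP90B1 call was lost without CC-885 replicate 1 (edgeR adjusted p = 0.117) or replicate 2 (edgeR adjusted p = 0.147).

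Several of these counts are less certain because of exons shared in the annotation. Of the genes named from these lists, OMA1, PPP1CB, BBC3 and HSP90B1 share exon bases with another gene on the same strand. EIF2S1, MAP3K20, CEBPA, JUNB, DDIT4, ERO1A, BCL2L11, BBC3, TNFRSF10B, PPP1CA and HSP90B1 do so with a gene on the opposite strand, and the marker genes KRT8 and KRT18 with each other.

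**Figure D5:**
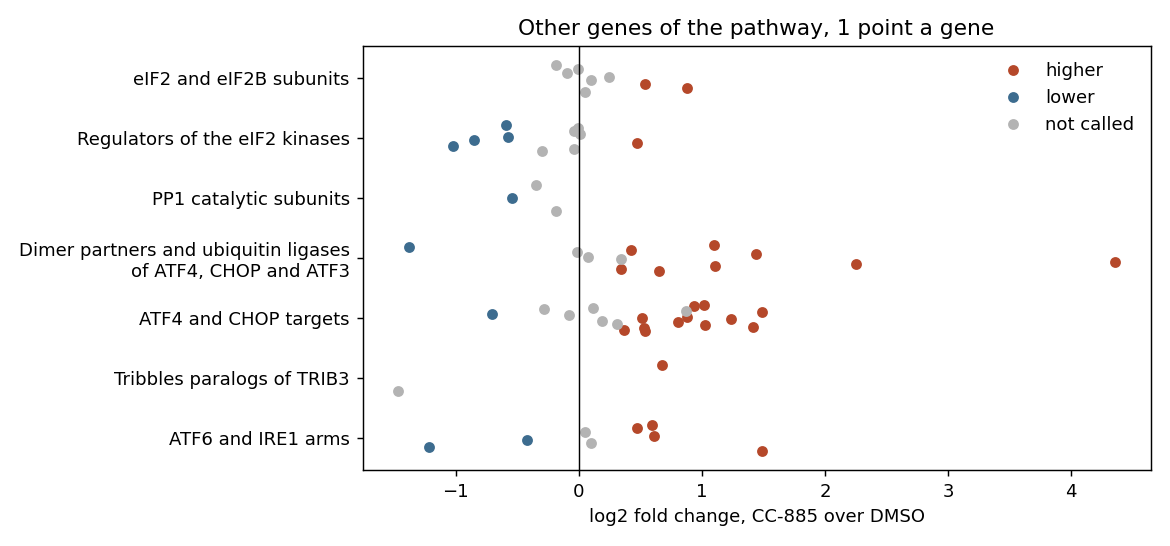
Log2 fold change of CC-885 over DMSO for the other genes of the pathway, 1 point a gene, in red where called higher, blue where called lower and grey where not called; FGF21, with 0 counts in 2 DMSO libraries, is not drawn. Targets of ATF4 and CHOP (13 of 20 higher) and dimer partners with ubiquitin ligases (8 of 12 higher) lie mostly right of 0. Regulators of the kinases (4 of 10 lower) lie mostly left of it. Of all tested genes 25.8% were called higher and 26.8% lower.

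Likeness of profile was measured as the root mean square difference of log2 CPM, centred on each gene's mean, over the 6 libraries, among genes with a mean of at least 5 CPM. It is a description that the difference between the groups largely sets. Among the 10 genes themselves, ATF4 and PPP1R15B were the closest pair outside the kinases (0.104). The genes nearest to ATF4 were LPL (0.04), LZTS3 (0.048) and MAMDC2 (0.053), and those nearest to PPP1R15B were ADNP2 (0.039), KLF11 (0.042) and OTUD1 (0.052). ATF3 had no neighbour so close, with KRT34 (0.229), DUSP5 (0.298) and JUN (0.304) nearest. PPP1R15A was nearest to NR4A3 (0.115), THBS1 (0.116) and TGFB2 (0.162). For DDIT3 they were WEE1 (0.079), WFDC1 (0.149) and ZNF670 (0.162), and for TRIB3 PTPRR (0.069), SMIM13 (0.112) and DENND2C (0.113).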

How the data were processed

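Whole-number counts per Ensembl gene were deposited by the authors for 6 libraries with no normalization, as read from the values and the file header. Per the labels' protocols an mRNA kit was used, and no strand setting is stated. The aligner, the counter and the annotation were not given in the sources used here. Builds named in the submitters' processing notes are those of mouse, GRCm38 and mm10, but identifiers are of human genes, so no coordinates were taken from the counted genes, and those of the promoter windows are from the RefSeq table (GRCh38.p14). Symbols came from a table of gene names (20148) or GENCODE 29 (76), which also gave exon lengths and overlaps. Of nonzero counts of 19 or fewer 66.2% were even, so a fragment may have been counted more than once, and counts were also halved as an alternative.

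The fit used edgeR 4.0.16 (R 4.3.3) with TMM factors, filterByExpr (minimum count 10) and the robust quasi-likelihood F test without covariates. Benjamini-Hochberg adjustment ran over 13444 genes with a threshold of 0.05. The fit was also run on simulated data with far fewer changed genes than were called here. That run cannot show how scaling and calls behave when so many genes change. SE was approximated by dividing the size of the log2 fold change by the square root of F. Ratios within a library used a pseudocount of 0.5, as did the likeness of profiles. Alternatives were DESeq2 1.42.0, limma-voom 3.58.1, other scalings and filters, halved counts, a replicate block and each library left out. The genes and lists were chosen with earlier results of these data known. Named are the 10 genes, up to 3 called members of each list in each direction by p, and the 3 nearest profiles of each gene changed at least 2-fold; others are given to complete a list.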

Additional observations from a re-analysis of the deposited data

How the results depend on the processing

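The log2 fold changes of ATF4, ATF3, DDIT3, PPP1R15A, PPP1R15B and TRIB3 kept their direction and their call under all 14 alternatives, with adjusted p of at most 0.00184. EIF2AK1 passed as lower with scaling by library size only (-0.39), with genes of at least 5 CPM in 3 libraries (-0.39) and with halved counts (-0.34). Over all tested genes 3956, 3067 and 3546 were lower under these settings in turn, against 3598 in the main fit and 3578 with limma-voom. Under these 3 settings 1 of the 4 kinases, 1 of the 10 genes and 2 of the PP1 catalytic subunits were called lower. TRIB2 made 1 lower paralog under library size only and limma-voom. The cause was not tested. With a library left out, log2 fold changes ran from -0.39 to -0.25 for EIF2AK1 and from 0.45 to 0.66 for EIF2AK3. Over all tested genes 2897 to 3650 were then called higher and 2908 to 3720 lower, so the counts below stand against a background that also moved. Called higher in the same fits were 10 to 14 targets, 6 to 8 dimer partners and ligases, and 3 to 4 genes of the ATF6 and IRE1 arms. Of the regulators of the kinases 3 to 5 were lower. In those fits 0 to 1 kinases were higher and 0 to 1 lower, 6 to 7 of the 10 genes were higher and 0 to 1 lower, 1 to 2 PP1 subunits, 1 to 2 targets, 0 to 1 paralogs and 1 to 2 genes of the ATF6 and IRE1 arms were lower, and the log2 ratio difference of DDIT3 over ATF4 ran from -0.048 to 0.25 (-0.0047 without DMSO replicate 1).

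Whether the replicate numbers pair the samples stayed unsettled, as same-numbered deviations correlated only weakly, at 0.096, 0.031 and 0.072. For CC-885 replicates 1 and 3 the same-numbered DMSO library correlated best, while CC-885 replicate 2 correlated best with DMSO replicate 1 (0.037). With the replicate number as a block, 7 of the 10 genes were higher and 0 lower, with no call among the 10 changed, and 3597 genes were higher and 3676 lower in all. A count of 0 in a library allows up to 0.0754 to 0.0986 CPM (3 counts of the total, counting error only), or more if fragments were counted repeatedly.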
